A study of Arabidopsis thaliana with 18 samples.

Results

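The comparison described here is the difference between genotypes in the polysome-to-total ratio of each locus, that is, the change from total to polysomal RNA in the mutant minus the same change in the control, on the log2 scale. It used 12 of the 18 libraries of the study, all from Arabidopsis thaliana Columbia-0 leaves, with n = 3 libraries in each of 4 groups, and 21667 of the 34212 loci in the tables passed the count filter. The control was pad4-1 and the mutant was upf1-3 pad4-1, so every library carried pad4-1 and none came from wild-type plants. Plants of both genotypes were 3 weeks old. They had been raised on sucrose plates for 10 days and then in soil, at 22 °C with 16 h of light and 8 h of dark. Total RNA was leaf RNA as extracted, polysomal RNA was the part bound by several ribosomes, and the remaining 6 libraries held monosomal RNA, the part bound by single ribosomes. The labels call the replicates biological, do not say whether total and polysomal libraries of the same number came from the same plants, and give no time of day for the harvest.

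UPF1, an RNA helicase, is required for nonsense-mediated mRNA decay (NMD). The pathway recognises abnormal translation termination on ribosome-bound transcripts, such as those with premature stop codons or with upstream open reading frames (ORFs). A transcript with many ribosomes is enriched in polysomal over total RNA, so the ratio of both is commonly read as the degree of translation, provided that both RNAs sample the same plants at the same time. In leaves a large share of transcripts cycles over the day under the circadian clock, in which the morning transcription factors CCA1 and LHY repress evening genes such as TOC1, GI, LUX and ELF4, and TOC1 represses CCA1 and LHY in turn.

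The 12 libraries held 23631313 to 81528839 estimated counts. Loci encoded in the chloroplast took 34.1 to 56.2% of the counts in total RNA and 33.6 to 53.3% in polysomal RNA, apart from control polysomal replicate 1, at 74.1%. Nuclear ribosomal RNA took 10.4% in mutant total replicate 2 and at most 2.03% in the other 11. UPF1 stood at 61.8, 76.4 and 69.9 CPM (read counts scaled to library size, with TMM factors) in control total replicates 1 to 3 and at 39.3, 24.7 and 35.8 CPM in the mutant's. The polysomal values were 46.8, 44.5 and 43.0 CPM for the control and 24.4, 29.1 and 58.9 CPM for the mutant. The groups did not overlap in total RNA. In polysomal RNA the library labelled mutant polysomal replicate 3 lay above all 3 control libraries and the other 2 mutant libraries lay below them. The difference of the ratio was 0.80 (SE 0.44, adjusted p = 0.578 by edgeR's quasi-likelihood test, as for every adjusted p here unless another tool is named), and 0.23 without that library. PAD4, mutated in all groups, stood at 1.78, 1.33 and 1.31 CPM in control total RNA, 3.57, 40.2 and 4.41 CPM in mutant total RNA, 0.893, 0.0644 and 1.14 CPM in control polysomal RNA and 4.64, 6.0 and 3.62 CPM in mutant polysomal RNA. Mutant total replicate 2 was the highest of the 12. The difference was -0.65 (SE 1.2, adjusted p = 0.9), 1.27 without that library and 0.082 without TMM scaling. What either allele changes in its gene is not given in the sources used here.

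The clock phase of each library was read from a clock measure, the mean log2(CPM + 0.5) of CCA1 and LHY minus that of TOC1, GI, ELF4, LUX and FKF1, so that high values mark morning-type and low values evening-type RNA. In control total RNA the measure was -4.85, -4.79 and -5.49 in replicates 1 to 3, and in control polysomal RNA it was -2.39, -4.21 and -3.83. In mutant polysomal RNA it was 5.61, 5.08 and 6.40. In mutant total RNA it was -3.98 and -4.17 in replicates 1 and 2 but 4.52 in replicate 3. All 6 control libraries and mutant total replicates 1 and 2 were thus evening-type, and the 3 mutant polysomal libraries and mutant total replicate 3 were morning-type. Monosomal RNA followed its genotype, at -3.90 to -1.93 in the control and 5.33 to 6.02 in the mutant. No test was made, because 3 libraries against 3 cannot go below an exact permutation p of 0.1. Control polysomal values lay above control total values without overlap, all below 0, while mutant total replicates 1 and 2 and the mutant polysomal libraries lay on opposite sides of 0. The difference of the ratio in the measure itself was 5.34 over 12 libraries and 8.20 without mutant total replicate 3. Without this library the mutant's total RNA was all evening-type and its polysomal RNA all morning-type. That fit therefore cannot tell polysome loading from clock phase, for any gene called in it, and the fit over 12 libraries keeps part of the mismatch. Gene values that rest on mutant total replicate 3 are given with and without it.

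**Figure D1:**
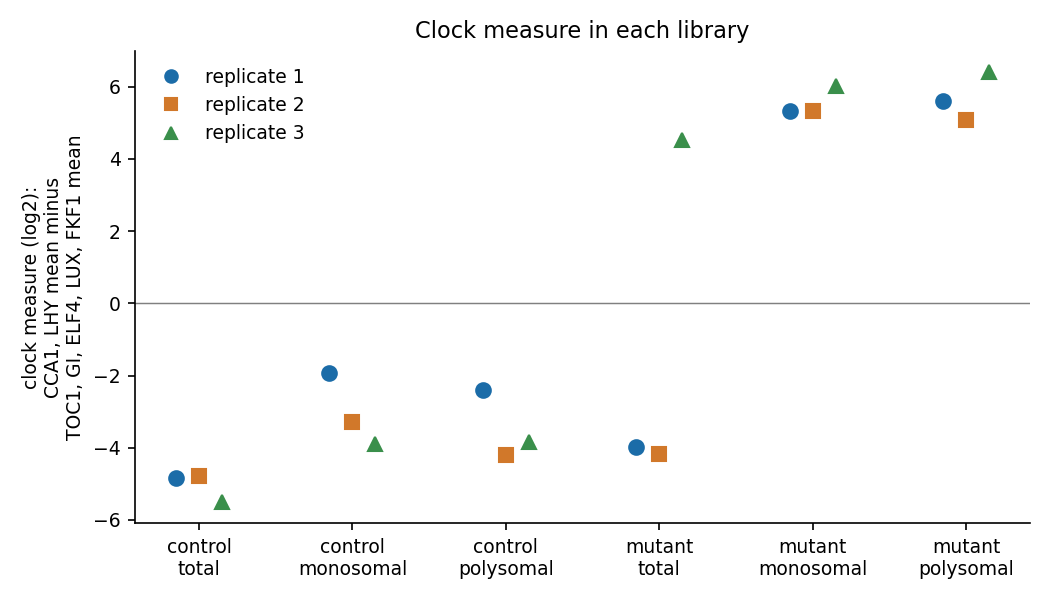
The clock measure (log2, y axis) in each of the 18 libraries, by genotype and kind of RNA (x axis), with colour and shape for the replicate number. Mutant total replicates 1 and 2 lie with the control libraries at -3.98 and -4.17, and mutant total replicate 3 lies at 4.52, near the mutant polysomal and monosomal libraries at 5.08 to 6.40.

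The question of this comparison is which transcripts are loaded on polysomes to a different degree when UPF1 is impaired. Of 21667 loci tested, 0 were called higher and 1 was called lower at an adjusted p under 0.05 (0.00462% of loci). This locus was AT1G48598, named after its values were seen. At an unadjusted p under 0.05, 1203 loci had a higher ratio in the mutant (5.55%) and 917 a lower one (4.23%), together 9.78%. limma-voom also called 1 locus, lower, with 8.88% at an unadjusted p under 0.05, and DESeq2 called 41 higher (0.189%) and 55 lower (0.254%), together 0.443%. DESeq2 gave no p for some loci, CCA1, PAD4 and PR1 among them, and its shares are over all 21667. Without mutant total replicate 3, edgeR called 38 loci higher and 48 lower of 23036 (0.373%), and leaving out any other of the 12 libraries gave 0 higher and 1 or 2 lower. Without that library, DESeq2 called 575 loci (2.5%), of which 85 were among edgeR's 86. The 96 loci that DESeq2 called over all 12 libraries shared 31 with these 86. The genotypes themselves differed at many loci in the same fit, with 4984 called in total RNA (23%) and 4418 in polysomal RNA (20.4%). Polysomal and total RNA differed at 849 loci in the control (3.92%) and at 2652 in the mutant (12.2%).

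**Figure D2:**
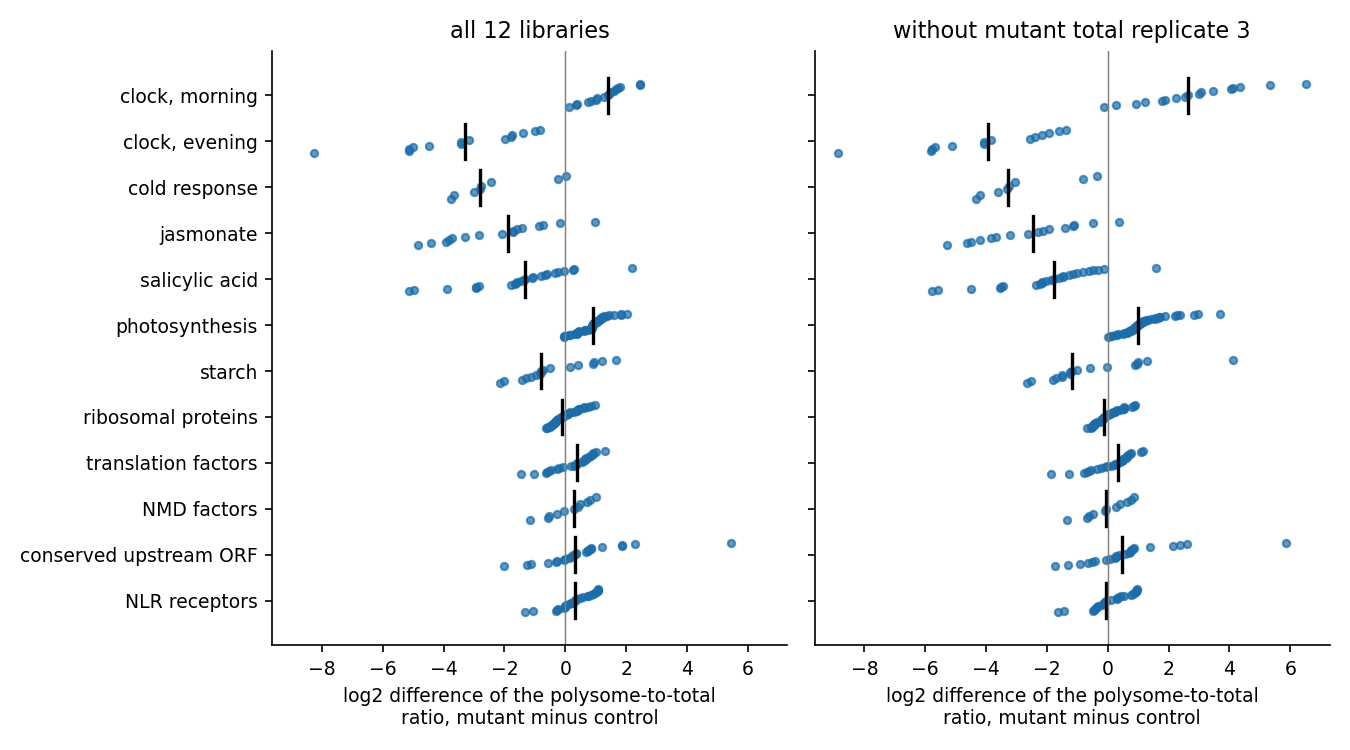
The log2 difference of the polysome-to-total ratio, mutant minus control (x axis), of each tested member of 12 gene lists (y axis), over all 12 libraries and without mutant total replicate 3; black bars are medians. The morning clock list moves from a median of 1.41 to 2.63 and the evening clock list from -3.29 to -3.95, and the ribosomal protein list stays at -0.10 and -0.11.

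AT1G48598, which the supplied annotation does not hold, had the lowest p of all loci. It stood at 1.28, 0.831 and 2.09 CPM in control total replicates 1 to 3, at 14.9, 8.31 and 17.1 CPM in mutant total RNA, at 129.5, 72.3 and 71.8 CPM in control polysomal RNA and at 12.7, 11.1 and 12.8 CPM in mutant polysomal RNA. Control polysomal libraries were thus the highest and control total libraries the lowest, with the mutant's libraries of both kinds in between and overlapping each other. Polysomal RNA exceeded total RNA by 6.02 on the log2 scale in the control (adjusted p = 4.59e-05) and not in the mutant (-0.14, adjusted p = 0.84), a difference of -6.16 (SE 0.55, adjusted p = 0.000511). The difference was -6.515 with the clock measure as a covariate, whose slope rests mostly on mutant total replicate 3, and -6.03 without that library. Without the library labelled mutant polysomal replicate 3 it was -6.267 (adjusted p = 0.00366). In a fit that also held the monosomal libraries the same difference was -6.21 with an SE of 1.5 and was not called (adjusted p = 0.339).

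The numerically next gene, PMEAMT (AT1G48600), encodes a phosphoethanolamine N-methyltransferase of choline phospholipid synthesis and belongs to a list of genes with a conserved upstream ORF. Its levels went the other way. PMEAMT stood at 96.6, 63.4 and 56.9 CPM in control total RNA, 39.1, 11.4 and 59.1 CPM in mutant total RNA, 0.611, 5.44 and 4.52 CPM in control polysomal RNA and 64.8, 60.0 and 110.9 CPM in mutant polysomal RNA. Control polysomal libraries were the lowest, with no overlap with any other group. The difference of the ratio was 5.45 (SE 0.93), with an adjusted p of 0.302 over 12 libraries, 0.0205 without mutant total replicate 3 and 9.01e-07 by DESeq2. Of the counts of both loci together, AT1G48598 held 2.05% ± 1.3 (SD, n = 3) in control total RNA, 95.5% ± 3.5 in control polysomal RNA, 30.7% ± 10.3 in mutant total RNA and 14.1% ± 3.31 in mutant polysomal RNA. The summed level of the pair was 73.7 ± 21.1, 94.7 ± 30.7, 49.97 ± 28.5 and 90.8 ± 28.7 CPM in the same order. With both loci counted as 1, chosen after seeing the data, the difference was 0.50 (SE 0.60, adjusted p = 0.822) and no locus was called. The supplied annotation does not show whether AT1G48598 and PMEAMT share transcript sequence, and if they do, their estimated counts divide the same reads. In control monosomal RNA PMEAMT stood at 92.9, 73.8 and 50.5 CPM and AT1G48598 at 0.902, 0.147 and 3.19 CPM (scaled over 18 libraries), so the low PMEAMT and high AT1G48598 values were seen in polysomal and not in monosomal RNA of the control.

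**Figure D3:**
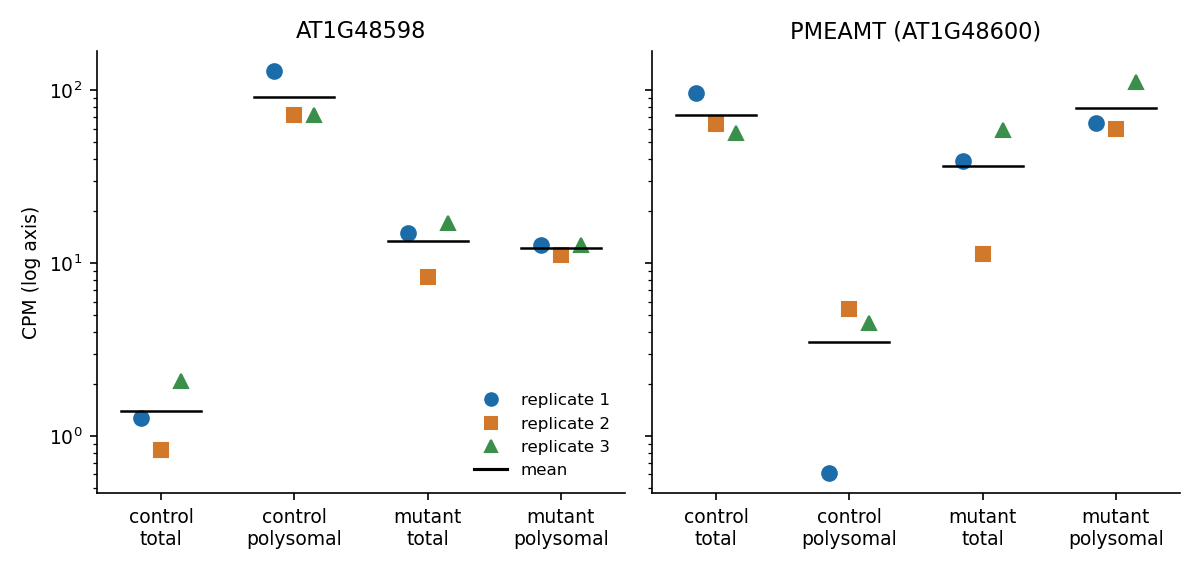
CPM (log axis) of AT1G48598 and PMEAMT in each of the 12 libraries, by genotype and kind of RNA; black bars are means of 3 libraries. In control polysomal RNA AT1G48598 stands at 71.8 to 129.5 CPM and PMEAMT at 0.611 to 5.44 CPM, the reverse of control total RNA.

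Clock genes stood apart in both directions, and the evening list had the median farthest from 0 of the lists tested. Of 17 morning genes tested, all had a positive difference (median 1.41), 5 of them at an unadjusted p under 0.05, against 5.55% of all loci higher and a median of 0.02. Of 14 evening genes, all had a negative difference (median -3.29, the same with ELF4 at its bound), 10 of them at an unadjusted p under 0.05, against 4.23% of all loci lower. Over 12 libraries edgeR called none of the 31. DESeq2 called ELF4 (adjusted p = 0.0136) and GRP7 (adjusted p = 0.0394) lower and gave no p for CCA1. Without mutant total replicate 2, 1 morning gene was at an unadjusted p under 0.05 (median 0.84) and 9 evening genes were (median -3.10), against 3.44% of loci higher and 3.42% lower in that fit. Without mutant total replicate 3, 6 morning genes were called higher and 8 evening genes lower, against 0.165% and 0.208% of all loci. That library was set apart by the clock measure, and CCA1, LHY, GI, ELF4 and FKF1 of the measure are among these calls. The lists were chosen with earlier results of these data known, and many members belong to the clock measure or follow the same daily rhythm, so they are not separate evidence.

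Before the values, the 250 bases upstream of the annotated start are shown for 4 of these 14 called genes, chosen by their motif matches. The clock's own factors bind short motifs in such upstream sequence. The sequences come from RefSeq's TAIR10.1, are written 5′ to 3′ along the gene and carry the motifs found in capitals: the evening element AAAATATCT in GRP7 and FKF1, and the G-box CACGTG in CCA1 and LHY.
GRP7, chr2:9266558-9266807, minus strand: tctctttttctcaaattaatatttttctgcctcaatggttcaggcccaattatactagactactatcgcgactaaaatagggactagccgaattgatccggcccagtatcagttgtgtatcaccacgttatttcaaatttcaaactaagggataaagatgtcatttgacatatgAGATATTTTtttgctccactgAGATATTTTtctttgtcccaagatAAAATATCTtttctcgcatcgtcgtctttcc
FKF1, chr1:25508389-25508638, plus strand: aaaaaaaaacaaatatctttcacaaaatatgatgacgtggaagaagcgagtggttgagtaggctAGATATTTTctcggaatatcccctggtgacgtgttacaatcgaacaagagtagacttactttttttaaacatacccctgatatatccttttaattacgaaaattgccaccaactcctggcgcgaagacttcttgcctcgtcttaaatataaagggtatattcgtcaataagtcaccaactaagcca
CCA1, chr2:19245341-19245590, plus strand: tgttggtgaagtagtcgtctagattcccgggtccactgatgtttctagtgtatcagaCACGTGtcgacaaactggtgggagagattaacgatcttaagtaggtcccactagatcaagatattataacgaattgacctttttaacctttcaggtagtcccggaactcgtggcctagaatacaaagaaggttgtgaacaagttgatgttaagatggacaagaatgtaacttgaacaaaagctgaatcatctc
LHY, chr1:37872-38121, minus strand: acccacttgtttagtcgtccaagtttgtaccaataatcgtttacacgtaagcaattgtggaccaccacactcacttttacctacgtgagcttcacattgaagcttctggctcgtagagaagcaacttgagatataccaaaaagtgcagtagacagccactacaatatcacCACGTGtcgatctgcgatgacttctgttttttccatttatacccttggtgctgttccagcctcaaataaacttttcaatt
Both strands of the upstream window were searched for the evening element, for the CCA1-binding site AAAAATCT and for the G-box, 3 motifs of which none contains another. The evening element stood in the window of 4 of 7 called evening genes with a window analysed and 1 of 6 called morning genes, against 2.5% of 20201 tested loci with a window. The G-box stood in 0 of 7 and 3 of 6, against 7.25%, and the CCA1-binding site in 1 of 7 and 0 of 6, against 6.75%. GRP7 held 3 evening elements, and the windows of ELF4, GI, JMJD5, CDF1 and COL1 held no match. A match describes the letters only.

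GRP7 encodes a glycine-rich RNA-binding protein whose transcript peaks in the evening. It stood at 648, 820 and 1102 CPM in control total RNA, 1323, 1327 and 35.3 CPM in mutant total RNA, 797, 1105 and 1200.2 CPM in control polysomal RNA and 58.4, 20.2 and 13.5 CPM in mutant polysomal RNA. Mutant total replicate 3 lay with the mutant polysomal libraries and replicates 1 and 2 above all others. The difference of the ratio was -5.14 (SE 1.24, adjusted p = 0.416), and -5.79 (SE 0.72, adjusted p = 0.00301) without replicate 3. FKF1, a blue-light receptor that promotes flowering in long days, stood at 70.6, 48.1 and 58.1 CPM in control total RNA, at 44.0, 42.7 and 0.292 CPM in mutant total RNA, at 25.6, 48.5 and 38.7 CPM in control polysomal RNA and at 0.823, 0.544 and 0.252 CPM in mutant polysomal RNA. The same split of the mutant total libraries was seen. FKF1 stood at -5.01 (SE 1.39, adjusted p = 0.42) over 12 libraries and at -5.68 (SE 0.53, adjusted p = 0.000426) without replicate 3. Other evening genes called without that library were the cold- and clock-regulated COR27 (-5.80, SE 0.72), the histone demethylase gene JMJD5 (-4.08, SE 0.72), the pseudo-response regulator gene PRR5 (-3.82, SE 0.69), GRP8 (-2.17, SE 0.41), GI (-1.94, SE 0.38) and ELF4. Over 12 libraries COR27, JMJD5, PRR5, GRP8 and GI stood at -5.14, -3.42, -3.17, -1.74 and -1.38, and none was called. ELF4 had 0 counts in the 3 mutant polysomal libraries, which allows up to 0.0424, 0.0677 and 0.13 CPM and covers counting error only, against 0.517 to 1.51 CPM in control polysomal RNA, so no fold is given. TOC1 (-1.99 over 12 libraries and -2.56, adjusted p = 0.112, without replicate 3) and LUX (-1.79 and -2.40, adjusted p = 0.187) were not called.

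LHY stood at 1.45, 0.960 and 0.443 CPM in control total RNA, 0.949, 1.80 and 131.4 CPM in mutant total RNA, 4.42, 1.74 and 1.21 CPM in control polysomal RNA and 499, 181 and 345 CPM in mutant polysomal RNA. Mutant total replicate 3 was again the library apart from its group. Its difference was 1.58 (SE 1.75, adjusted p = 0.8) over 12 libraries and 6.53 (SE 0.86, adjusted p = 0.00462) without replicate 3. CCA1 went from 1.67 (SE 1.26, adjusted p = 0.689) to 4.35 (SE 0.66, adjusted p = 0.0109). The CONSTANS-like genes COL2 (5.32, SE 0.77) and COL1 (4.11, SE 0.71), LNK3 (3.44, SE 0.48) and the DOF factor gene CDF1 (AT5G62430; 2.98, SE 0.54) were also higher without that library. Over 12 libraries COL2, COL1, LNK3 and CDF1 stood at 1.06, 2.46, 1.41 and 1.78 and were not called. With the clock measure as a covariate, the medians were 0.44 for morning and 0.63 for evening genes, against 0.09 for all loci, and 0 loci were called higher and 1 lower. The slope of this covariate comes from the spread within groups. Mutant total replicate 3, at 4.52 against -3.98 and -4.17 in replicates 1 and 2, makes most of that spread. The fit therefore cannot tell clock phase from other traits of this library. The 7 genes of the measure stand on both sides of that fit.

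The polysome-to-monosome ratio compares libraries of like clock phase within each genotype. It shares the polysomal libraries with the polysome-to-total ratio. Of 21905 loci tested over 18 libraries, 0 differed between genotypes in this ratio (0%), with 4.03% at an unadjusted p under 0.05. The median was 0.32 for morning and -0.31 for evening clock genes, and -0.01 for all loci. GRP7 stood at 0.39 (SE 1.08) and FKF1 at -0.02 (SE 1.22). The monosome-to-total ratio, which shares the total libraries, also gave 0 loci (10.6% at an unadjusted p under 0.05), with medians of 0.86 for morning and -2.54 for evening genes.

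**Figure D4:**
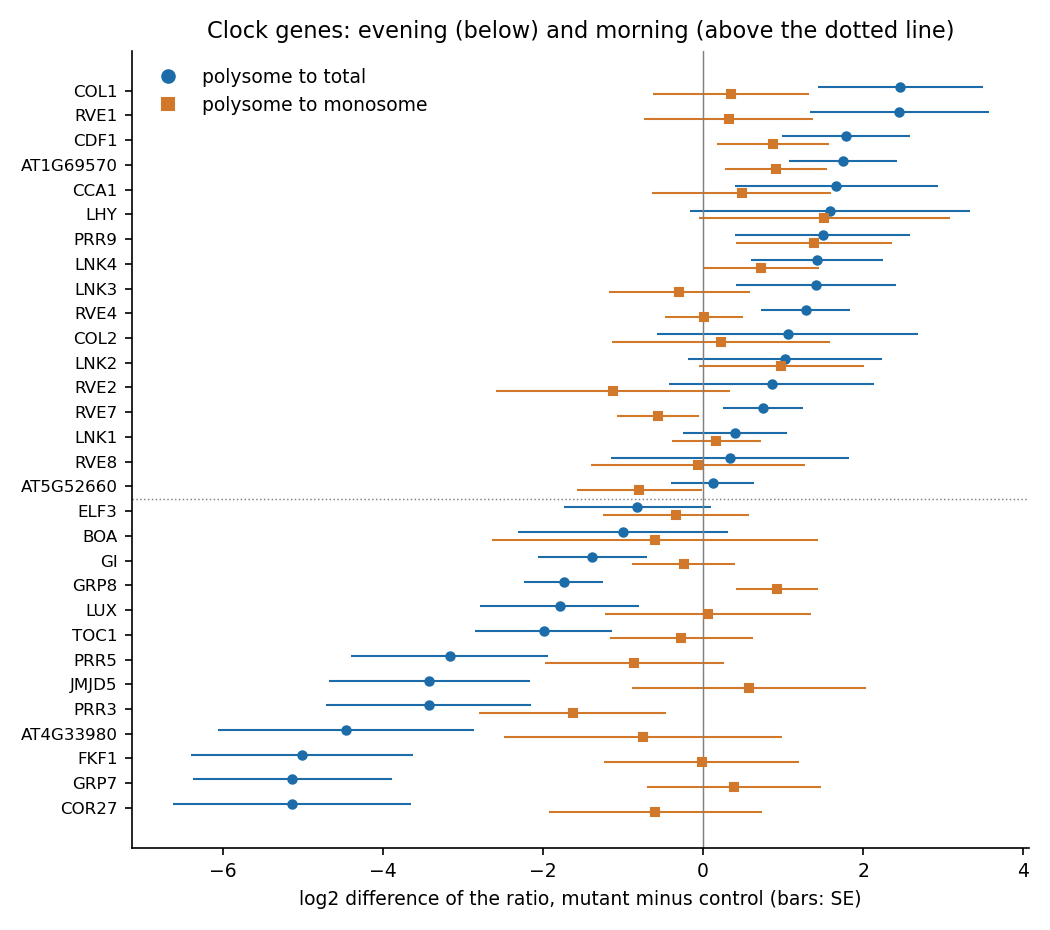
Log2 difference between genotypes (x axis, bars are SE) of the polysome-to-total and the polysome-to-monosome ratio for 30 clock genes (y axis), ELF4 left out because of its 0 counts. GRP7 stands at -5.14 in the first ratio and 0.39 in the second, FKF1 at -5.01 and -0.02.

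Genes of the cold response, many of which are gated by the clock, also stood low. Of 8 tested, 5 had an unadjusted p under 0.05 on the lower side, against 4.23% of all loci (median -2.79), and without mutant total replicate 3 the 4 genes KIN2, COR15B, COR15A and RD29A were called lower, against 0.208% of loci. DESeq2 called the same number, 4, lower over 12 libraries, against 0.254%. The median was -1.59 without mutant total replicate 2. KIN2 encodes a small cold- and abscisic-acid-induced protein. It stood at 72.4, 76.9 and 45.4 CPM in control total RNA, 79.7, 69.7 and 10.3 CPM in mutant total RNA, 55.9, 109.7 and 110.2 CPM in control polysomal RNA and 6.52, 7.55 and 2.73 CPM in mutant polysomal RNA. Mutant total replicate 3 lay between the control and the mutant polysomal libraries. The difference was -3.74 (SE 0.83, adjusted p = 0.416), and -4.33 (SE 0.57, adjusted p = 0.00462) without it. RCI2A, which encodes a small hydrophobic membrane protein induced by cold, was in no list and stood at -3.71 (SE 0.80) and -4.22 (SE 0.65, adjusted p = 0.0114). Against the control mean, the cold list's median level was -0.14, 0.15 and -2.08 in mutant total replicates 1 to 3 and -2.79, -2.18 and -3.04 in mutant polysomal RNA. With the clock measure as a covariate the median of the difference was -1.01.

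Jasmonate genes, which act in wound and herbivore defence, had 11 of 16 at an unadjusted p under 0.05 on the lower side, against 4.23% (median -1.90). DESeq2 called 2 of 16 lower over 12 libraries, against 0.254% of loci. Without mutant total replicate 3 edgeR called 1 lower, against 0.208% of loci. This was CORI3, which encodes a coronatine-induced aminotransferase-like protein (-3.84, SE 0.57, adjusted p = 0.00893, and 0.0094 by DESeq2 over 12 libraries). CORI3 stood at 37.5, 127.2 and 15.2 CPM in mutant total RNA. Its difference was -3.31 (SE 0.78, adjusted p = 0.416) over 12 libraries and -2.22 (adjusted p = 0.552) without replicate 2. JAZ5, a repressor of the pathway, stood at -2.85 (SE 0.67, adjusted p = 0.416, and 0.0189 by DESeq2). JAZ5 was at 2.99, 7.45 and 2.59 CPM in mutant total RNA, with 1.74, 2.33 and 1.35 CPM in the mutant's polysomal RNA, against 1.01 to 1.5 CPM and 2.44 to 5.06 CPM in the control. The count was 6 of 16 without mutant total replicate 2, against 3.42%, with a median of -1.29. That library also carried high salicylic acid genes, whose median level against the control mean was 4.23 there and 0.16 and 0.34 in mutant total replicates 1 and 3. PR1, the classical marker of salicylic acid defence, stood at 1.19, 534 and 3.53 CPM in mutant total RNA, with 6.69, 11.7 and 1.05 CPM in the mutant's polysomal RNA. Its difference was -4.97 (SE 2.21, adjusted p = 0.504) and 1.21 without that library. The salicylic acid list (24 tested, 1 lower at an unadjusted p under 0.05, against 4.23% of all loci) had a median of -1.33 with mutant total replicate 2 (-1.41 with 2 members at their bound) and 0.81 without it. Without mutant total replicate 3, 7 of 25 were lower, against 6.19%, with a median of -1.77. Touch and wound genes (9 tested, 1 lower, against 4.23%) likewise stood at -0.63 with and 0.18 without mutant total replicate 2. Without mutant total replicate 3, 3 of 9 were lower, against 6.19%.

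**Figure D5:**
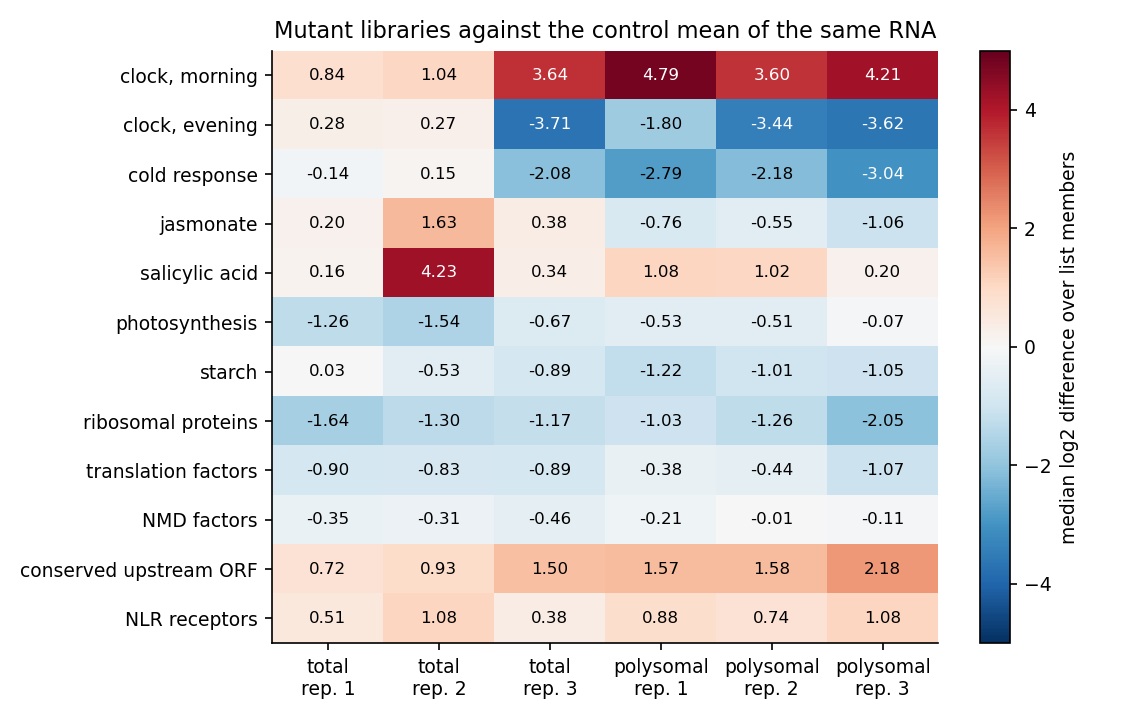
Median log2 difference of each gene list (rows) in each mutant library (columns) against the mean of the 3 control libraries of the same kind of RNA; red is higher and blue lower, on a scale from -5 to 5. Mutant total replicate 3 resembles the polysomal libraries in the clock and cold lists (-3.71 for evening genes), and mutant total replicate 2 stands apart in the salicylic acid list (4.23).

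Starch genes split by member. ISA3, a starch-debranching enzyme, stood at -2.02 (SE 0.55, adjusted p = 0.416), and fell without mutant total replicate 3 (-2.51, SE 0.35, adjusted p = 0.00642). GBSS1, the granule-bound starch synthase, stood at 1.21 (SE 1.21, adjusted p = 0.773), and at 4.12 (SE 0.44, adjusted p = 0.0014) without it. GBSS1 had 7.91, 6.86 and 162.7 CPM in mutant total RNA and 108.4, 113.4 and 141.8 CPM in mutant polysomal RNA, against 3.73 to 4.89 CPM in control total RNA and 2.51 to 5.12 CPM in control polysomal RNA. Of 17 starch genes, 2 were higher and 4 lower at an unadjusted p under 0.05 (median -0.78), against 5.55% and 4.23% of all loci. Without mutant total replicate 3 it was 2 higher and 9 lower, against 5.43% and 6.19%, and without mutant total replicate 1 the median was -0.36. Among other genes called higher without replicate 3 were NDA1, an alternative NAD(P)H dehydrogenase of mitochondria (5.0, SE 0.55), the antenna protein gene LHCB2.3 (4.81, SE 0.72), the B-box gene STH (4.29) and the plastid sigma factor gene SIGE (3.49). Over 12 libraries these 4 stood at 2.14, 1.77, 1.14 and 2.34 in the same order and were not called. Lower ones included the hexose transporter gene MSS1 (-3.98; -1.46, adjusted p = 0.739, without mutant total replicate 2 alone) and AT14A (-3.79), whose 2 loci AT3G28290 and AT3G28300 have the same value, so their reads cannot be told apart. MSS1 stood at -3.37 and AT14A at -3.15 over 12 libraries, and neither was called.

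Nuclear photosynthesis genes had a positive difference in 48 of 50 (median 0.91), with 8 at an unadjusted p under 0.05 on the higher side, against 5.55%, and none called by edgeR or DESeq2. The count was 14 without mutant total replicate 3, against 5.43%, and 3 without mutant total replicate 2, against 3.44%. PRK, the phosphoribulokinase of the Calvin cycle, stood at 613, 542 and 559 CPM in control total RNA, 281, 261 and 351 CPM in mutant total RNA, 350, 384 and 420 CPM in control polysomal RNA and 558, 304 and 540 CPM in mutant polysomal RNA. In PRK the mutant was below the control in total RNA with no overlap, and overlapped it in polysomal RNA (1.22, SE 0.41, adjusted p = 0.427). The list's median genotype difference was -1.13 in total and -0.33 in polysomal RNA. The median difference of the ratio was 0.99 without mutant total replicate 3, 0.65 without mutant total replicate 2 and 0.58 with the clock covariate. Of 9 heat shock genes tested, 4 had a positive difference (median -0.27). At an unadjusted p under 0.05, 1 was higher and 1 lower, against 5.55% and 4.23%. The median was -0.74 without mutant total replicate 3 and 0.14 without mutant total replicate 2. HSP101, the heat shock disaggregase, had the smallest p and went against the list's median. It stood at 6.74, 5.65 and 7.49 CPM in control total RNA, 15.4, 10.3 and 23.6 CPM in mutant total RNA, 4.51, 5.28 and 4.25 CPM in control polysomal RNA and 36.3, 36.6 and 38.1 CPM in mutant polysomal RNA. The 4 groups did not overlap. The difference of HSP101 was 1.67 (SE 0.41, adjusted p = 0.416), and 1.93 (adjusted p = 0.0492) without mutant total replicate 3, where 0.165% of loci were called higher.

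No gene of the translation machinery or of NMD was called by edgeR or DESeq2. The 38 ribosomal protein genes had a median of -0.10 (0.58 without TMM scaling, and 0.10 without mutant polysomal replicate 3), with 0 at an unadjusted p under 0.05 on either side, while their levels were lower in the mutant in both kinds of RNA (median -1.35 in total and -1.40 in polysomal RNA). The smallest p was that of emb2386 (0.98, SE 0.48, adjusted p = 0.53). Of 27 translation factor genes, 5 were at an unadjusted p under 0.05 on the higher side, against 5.55% of all loci (median 0.40), and 3 were without mutant total replicate 2 or 3, against 3.44% and 5.43%. The smallest p was that of EIFISO4G2, a scaffold of cap-dependent initiation (0.88, SE 0.30, adjusted p = 0.427). Of 11 NMD and exon junction factor genes, 1 was higher and 1 lower at an unadjusted p under 0.05, against 5.55% and 4.23% (median 0.28). The median was -0.05 without mutant total replicate 3 and -0.15 without mutant polysomal replicate 3, and the smallest p was that of AT1G28260 (-1.15, SE 0.37, adjusted p = 0.427). Splicing regulators (25 tested, 2 lower at an unadjusted p under 0.05, against 4.23%, median -0.01 and from -0.37 to 0.14 with a library left out) were led by SR30, a serine/arginine-rich splicing factor gene. SR30 was higher in the mutant in total RNA (1.46, SE 0.24, adjusted p = 0.00117), but its polysomal difference was 0.57 (SE 0.24, adjusted p = 0.101), and the difference of the ratio was -0.89 (SE 0.33, adjusted p = 0.438). NLR immune receptor genes had 6 of 27 on the higher side at an unadjusted p under 0.05, against 5.55%. It was 1 of 27 without mutant total replicate 3, against 5.43%, and 1 without replicate 2, against 3.44%. On the lower side it was 0 of 27 over 12 libraries and 2 without replicate 3, against 4.23% and 6.19%. The median was 0.33 and, without replicate 3, -0.07. RPP13 came first (1.07, SE 0.42, adjusted p = 0.452).

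Transcript features linked to NMD were set beside the ratio. Of 24 genes with a conserved upstream ORF, 5 were higher and 2 lower at an unadjusted p under 0.05 (median 0.30), against 5.55% and 4.23%. The higher count was 3 without mutant total replicate 2, against 3.44% (median 0.19). Without mutant total replicate 3, against 0.165% of loci, PMEAMT and VTC2, which encodes an enzyme of ascorbate synthesis, were called higher (VTC2 2.60, SE 0.47, adjusted p = 0.0334). PMEAMT summed with AT1G48598 stood at 0.50 over 12 libraries (adjusted p = 0.822). VTC2 stood at 1.88 over 12 libraries, with 168, 121 and 475 CPM in mutant total replicates 1 to 3. Over 7545 loci with an annotated upstream ORF of at least 16 codons the median was -0.00, with 5.33% higher and 4.68% lower at an unadjusted p under 0.05, and over 11799 loci without one it was 0.02, with 5.63% and 4.17%. The 1947 loci with a splice junction over 50 nt downstream of the stop codon had a median of -0.07, and loci with a 3 prime UTR over 350 nt (6763) of -0.03. By coding length, loci of up to 747 bases had a median of -0.10, with 3.55% higher and 5.1% lower, and loci of over 1710 bases had a median of 0.18, with 9.72% higher and 2.45% lower. Over the 12 fits that left out a library, the medians ran from -0.24 to 0.06 for the short and from 0.07 to 0.24 for the long loci.

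Flowering time genes (13 tested, 1 higher at an unadjusted p under 0.05, against 5.55%) had CO first, the photoperiod regulator (3.11, SE 1.16, adjusted p = 0.44). CO stood at 4.77, 0.739 and 0.462 CPM in mutant polysomal RNA, and without replicate 1 its difference was 1.35. Of the cell division genes (11 tested, 0 on either side) CDC20.1 came first (-1.19, SE 0.71, adjusted p = 0.603, and -0.49 without mutant total replicate 3). WRKY40, a defence transcription factor gene, led the touch and wound list (-2.05, SE 0.81, adjusted p = 0.457, and -1.26 without control polysomal replicate 2). Markers of other cell types gave no gene called by edgeR, with or without mutant total replicate 3, or by DESeq2 over 12 libraries. Their medians changed sign with the library left out, from -0.13 to 0.32 for vascular, -0.06 to 0.60 for guard and myrosin cell, -0.78 to 0.23 for epidermis and -1.23 to 1.48 for flower and seed markers, the last value without mutant total replicate 2. Vascular markers (9 tested, median 0.04) were led by the proton pump gene AHA3 (0.82, SE 0.45), guard and myrosin cell markers (5, median 0.22) by MYB60 (0.70, SE 0.67) and epidermis and trichome markers (7, median -0.33) by ATML1 (0.73, SE 0.49). Flower and seed markers (14 of 16 tested, 2 higher and 1 lower at an unadjusted p under 0.05, against 5.55% and 4.23%, median -0.44) were led by LAP5, a pollen wall enzyme gene (4.85, SE 1.602, adjusted p = 0.427, and 7.66 without mutant total replicate 2). The list had a summed level of 11.3 to 40.25 CPM in control total, 0.614 to 9.16 in mutant total, 6.02 to 61.1 in control polysomal and 3.11 to 11.2 CPM in mutant polysomal RNA. Guard and myrosin markers summed to 402 CPM in mutant total replicate 2 and to 1705 to 3417 CPM in the other 11 libraries. Root hair markers did not pass the count filter over 12 libraries, at 0 to 0.925 CPM in sum. Their part in the results was not tested. In bulk RNA fewer cells of a type and less RNA per cell cannot be told apart.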

How the data were processed

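The values analysed are estimated counts per locus deposited by the authors in 2 tables, 1 for total RNA and 1 for monosomal and polysomal RNA, each with 34212 loci. The submitters' processing notes name kallisto 0.43.0, limma and build TAIR10. How transcript estimates were summed per locus is not given in the sources used here. Per the labels' protocols, libraries were single-end, strand-specific and depleted of ribosomal RNA. Counts were rounded. Loci were matched by identifier to TAIR10.1 (33437, 97.7%), which may differ from the authors' build.

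edgeR 4.0.16 (R 4.3.3) fitted 4 group means over 12 libraries (8 residual degrees of freedom), with TMM scaling, filterByExpr at a count minimum of 10, the quasi-likelihood F test and Benjamini-Hochberg adjustment over all tested loci. Calls are two-sided at an adjusted p under 0.05, and the SE is the difference over the square root of F. The ratio crosses both tables, but each genotype difference lies within 1 table. A trait that differs between the tables more in the mutant than in the control, such as the clock measure, does not cancel. Alternatives were DESeq2 1.42.0, limma-voom (limma 3.58.1), other scalings and filters, blocks, a clock covariate and each library left out. The steps were tested on simulated data. With no counts, 3 counts are the floor, for counting error only.

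The members, the 22 gene lists (384 of 388 entries found) and the tests were chosen with earlier results of these data known. Named genes were UPF1 and PAD4, the 7 clock measure genes, the 10 highest and 10 lowest called genes with a symbol (mean log2 CPM 3 or more), and up to 3 called members of each list or the smallest p where none was called. Over 12 libraries edgeR called no gene with a symbol (DESeq2 did, such as PMEAMT), so the rule was also applied without mutant total replicate 3, which was decided after seeing the data. The upstream window of 1 called evening gene is not reported here.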

Additional observations from a re-analysis of the deposited data

Results flagged for a closer look

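AT1G48598 was marked because the same change, from total to polysomal RNA, differed between genotypes in a test of the difference itself, by -6.16 on the log2 scale (SE 0.55, adjusted p = 0.000511 by edgeR's quasi-likelihood test). Its level was higher in polysomal than in total RNA in the control, with no overlap over 3 libraries of each, and overlapped in the mutant. The neighbouring identifier PMEAMT differed the other way (5.45), and the pair summed gave 0.50 (SE 0.60).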

How the results depend on the processing

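Loci called higher and lower, 0 and 1 over 12 libraries, were 6 and 13 with no count filter, 41 and 55 by DESeq2, 1 and 3 by limma-voom with quality weights, 0 and 2 without TMM, 0 and 0 over 18 libraries, and, added after seeing the data, 297 and 278 by DESeq2 without mutant total replicate 3. Leaving out each library gave 0 to 38 higher and 1 to 48 lower, the highest without mutant total replicate 3 and 2 lower without control total replicate 3. Without TMM the median of all loci moved from 0.02 to 0.66, so medians from -0.44 to 0 changed sign there. Same-numbered libraries did not deviate together (1 of 18 correlations over 0.1, from -0.13 to 0.11), so numbers were not taken as pairs. The replicate block called 0 and 1, and the replicate block nested in genotype 0 and 3, with 1 more change of sign (PAD4, 0.59).

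Of the 46 named genes, 1064 comparisons with an alternative kept direction and side of the threshold, 67 passed it only there, 1 did not pass it there (AT1G48598 over 18 libraries, -6.21, adjusted p = 0.339) and 18 changed sign. Of the 67, 24 came from edgeR and 29 from DESeq2 without mutant total replicate 3. Part of the named genes were picked because edgeR called them without that library, so their passing in that fit was given by the choice. The slope of the clock covariate rested mostly on mutant total replicate 3. With the clock covariate the signs changed for TOC1 (0.068), GI (0.52), LUX (1.13), FKF1 (1.09), COL2 (-0.15), STH (-0.029), COR27 (0.58), JMJD5 (0.845), PRR5 (1.28), AT14A (0.55) and PAD4 (0.97). PAD4 also changed without TMM (0.082), with limma-voom (0.96) and with its quality weights (1.71), and PR1 with the weights (1.36). Leaving out each library, PAD4 ran from -1.22 to 1.27 and PR1 from -5.75 to 1.21. The cause was not tested. Depth limited genes under about 1 CPM, where 3 counts were 0.0408 to 0.148 CPM.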

Other observations

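AT2G07786, a locus with no symbol in the annotation, had 0 counts in all control total and all mutant polysomal libraries, which allows up to 0.0413 to 0.0594 and 0.0424 to 0.13 CPM. It stood at 95.0, 148.9 and 118.1 CPM in mutant total RNA and at 5.97, 0 and 0 CPM in control polysomal RNA, so no fold of the ratio is given. In monosomal RNA it stood at 9.17, 4.05 and 0.446 CPM in the control and at 0 in the mutant (scaled over 18 libraries). Its adjusted p was 0.302 over 12 libraries, 0.0209 without mutant total replicate 3 and 7.8e-15 by DESeq2 over 12 libraries.

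ATCG00020, a chloroplast locus, took 9.71 to 15.8% of the counts in control total RNA, 30.5 to 36.3% in mutant total RNA, 16.3 to 45.5% in control polysomal RNA and 9.48 to 17.0% in mutant polysomal RNA. The mutant was above the control in total RNA without overlap, and the difference of the ratio was -3.21 (SE 1.03, adjusted p = 0.427, and 0.0165 by DESeq2), and -2.02 without control polysomal replicate 1. The 79 chloroplast-encoded loci tested had a median of 0.46, which was 0.08 without mutant total replicate 2 and -0.34 without mutant polysomal replicate 3, and ATCG00490 stood at -0.13 (SE 0.85).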
